A study of Rattus norvegicus with 12 samples.

Results

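The kinesin and tubulin genes were taken as every gene whose only symbol in the array's platform table begins with Kif followed by a digit or c, is Klc1 to Klc4, or begins with Tuba, Tubb or Tubg followed by a digit. A probe set is a group of short probes whose combined brightness gives 1 value for a transcript. The rule found 78 probe sets for 45 genes, of 31099 probe sets on the array and 14217 named genes. Another 7 probe sets carried a matching symbol together with other symbols and were left out. The 45 genes were 11 mitotic kinesins, 14 transport kinesins, 4 kinesin light chains, 5 other kinesin-named genes, 2 alpha tubulins, 8 beta tubulins and 1 gamma tubulin. A filter on mean brightness left 56 of the 78 probe sets and 35 of the 45 genes for testing, and the other 22 probe sets had mean intensities of 3.69 to 27.4.

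Total RNA from primary cultures of rat cerebellar granule neurons was hybridised to 12 Affymetrix arrays, 3 for each of 4 groups. The groups were low potassium at 3 h (LK_3h), GW5074 at 3 h (GW_3h), low potassium at 6 h (LK_6h) and GW5074 at 6 h (GW_6h). GW5074 is a small-molecule kinase inhibitor known for its action on Raf kinases, and a lowered potassium concentration is a standard way to set off death of these neurons. Whether potassium was also lowered in the GW5074 cultures is not given by the labels, and no group with raised potassium or without treatment is labelled. The sources used here give neither age in culture nor dose. The 3 arrays of a group carry the letters A, B and C. Nothing says that a letter marks a separate culture, so p-values measure the spread between these arrays, which may be technical. Treatment time and the time spent in culture differ together between 3 h and 6 h and cannot be told apart.

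Microtubules are hollow filaments of alpha and beta tubulin dimers, and gamma tubulin starts their growth. Kinesins are motor proteins that use ATP to move along microtubules, and light chains link the classical motor to its cargo. In neurons transport kinesins carry vesicles, organelles and RNA into axons and dendrites, whereas mitotic kinesins build and move the spindle of dividing cells. Granule neurons have left the cell cycle, so mitotic kinesins in such a culture can also come from other cells.

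Time was the main axis of variation. The first principal component over all tested probe sets held 54.8% of the variance, and on a scale where the mean of the 3 h arrays is 0 and that of the 6 h arrays is 1, the 3 h arrays lay between -0.085 and 0.116. At 6 h the letter B arrays lay at 0.691 (LK_6h) and 0.628 (GW_6h), nearer to the 3 h arrays than letters A and C, which lay between 1.1 and 1.234. All 14 granule neuron markers on the array passed the filter, and their summed intensity was 12850 to 16490 at 3 h and 18900 to 24140 at 6 h. Of the 24 proliferation markers on the array, 16 passed the filter, with sums of 1850 to 2283 at 3 h and 1896 to 2339 at 6 h. The summed astrocyte markers (8 of 9 past the filter) read 2225 to 3094 at 3 h and 3593 to 5950 at 6 h. Oligodendrocyte lineage markers (7 of 9 past the filter) read 2677 to 3982 at 3 h and 1891 to 2788 at 6 h. Microglial and macrophage markers (6 of 10 past the filter) summed to 442.7 to 905.3 at 3 h and 435 to 820.5 at 6 h, and fibroblast and endothelial markers (3 of 9) to 150.6 to 304.2 and 156.7 to 320.8. Each sum adds linear intensities and so follows its brightest genes. Among these were Pcna (group means of 1241 to 1349), Gfap (421.4 to 1946) and Mbp (1487 to 2267). Single markers could differ from their sum: Mki67 and Slc1a3 were lower and Olig1 was higher at 6 h in both treatments. The granule neuron markers Syp, Gabrd and Neurod2 were lower at 6 h in low potassium and higher with GW5074. The part of changing cell composition in any difference below was not tested, and in such bulk samples fewer cells of a type and less RNA per cell cannot be told apart.

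A minority of these genes changed between 3 h and 6 h. The beta tubulins Tubb6 and Tubb3 were lower on all 6 h arrays, and the transport kinesin Kif13a and the alpha tubulin Tuba4a were higher. In low potassium 7 of the 56 probe sets passed an adjusted p of 0.05 (limma, Benjamini-Hochberg over 18625 probe sets), 4 higher and 3 lower at 6 h, or 12.5%, beside 22.6% of all tested probe sets (11.6% higher and 11% lower). With GW5074 10 passed, 7 higher and 3 lower, or 17.9%, beside 25% of all (13.1% higher and 11.9% lower). The members' share was thus not above the array's background in either treatment. The 7 probe sets belonged to 6 genes and the 10 to 9 genes, with 5 genes in common and 10 in all. The same 5 probe sets passed in both treatments (Tubb6, Tuba4a, Klc1 and both of Kif13a), or 8.93%, beside 15.6% of all. All 6 arrays of 6 h lay above the 6 of 3 h for 6 members, or 10.7%, beside 10.8% of all probe sets, and below them for 4, or 7.14%, beside 10.4%. The median change of the 56 probe sets was 0.06 (log2) in low potassium and 0.13 with GW5074, beside -0.00 for all tested probe sets in both. Both time comparisons had no fit with the letter as a fixed block, since a letter pairs treatments within a time. No member passed the test of the difference between the time changes of the treatments (interaction, limma, adjusted p = 1 for each of the 56, unadjusted p under 0.05 for 5). The same test called 0% of all probe sets, and 3.46% had an unadjusted p under 0.05, beside 8.93% of the members.

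Tubb6, a beta tubulin found at low levels in most tissues, fell furthest of all members in both treatments. Its deposited intensity for letters A, B and C in low potassium was 238, 347 and 240 at 3 h and 74.2, 126 and 33.3 at 6 h. With GW5074 it was 372, 350 and 303 at 3 h and 51.8, 136 and 46.5 at 6 h. Every 6 h array lay below every 3 h array, and letter B was the highest 6 h array of each treatment. The fall was 3.43-fold in low potassium (log2 -1.78 ± 0.34 SE, limma adjusted p = 0.00297) and 4.13-fold with GW5074 (log2 -2.05 ± 0.34, adjusted p = 0.00108). Without both 6 h arrays of letter B the changes of Tubb6 were -2.13 and -2.43 (log2). A second probe set for Tubb6 read 1.11 to 21.3 on the 12 arrays and was not tested.

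Tubb3, the beta tubulin used as a marker of neurons, was also lower at 6 h on every array. Its intensity in low potassium was 757, 1044 and 1409 at 3 h and 720, 454 and 682 at 6 h. With GW5074 it was 858, 1101 and 1047 at 3 h and 687, 562 and 738 at 6 h. The 3 h and 6 h arrays did not overlap, although LK_3h A and LK_6h A were close. Tubb3 fell 1.67-fold in low potassium (log2 -0.74 ± 0.21 SE, limma adjusted p = 0.0234). With GW5074 the difference was -0.58 ± 0.21 and did not pass (adjusted p = 0.0591), but passed with the letter as a random block (0.0364) and without LK_3h A, LK_3h C or LK_6h B. In low potassium the call for Tubb3 was lost without LK_3h B (adjusted p = 0.0756), LK_3h C (0.0946), LK_6h B (0.0713) or both 6 h arrays of letter B (0.059). Its probe set has the suffix s, which marks probes shared by several transcripts.

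The alpha tubulin Tuba4a rose in both treatments. Tuba4a encodes the alpha tubulin whose gene lacks the usual terminal tyrosine. Its intensity in low potassium was 646, 626 and 693 at 3 h and 778, 830 and 1060 at 6 h, and with GW5074 it was 620, 671 and 627 at 3 h and 1074, 1000 and 1139 at 6 h. All 6 h arrays lay above all 3 h arrays. The rise was 1.35-fold in low potassium (log2 0.43 ± 0.12 SE, limma adjusted p = 0.0217) and 1.67-fold with GW5074 (0.74 ± 0.12, adjusted p = 0.00099). The call for Tuba4a in low potassium was lost without LK_3h A (adjusted p = 0.0593), LK_3h B (0.0868) or LK_6h C (0.108). The other alpha tubulin among the members, Tuba8, changed by -0.06 in low potassium and 0.39 with GW5074, and neither passed.

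The remaining tubulins, Tubb4a apart, moved little or unevenly. Tubb2a, a major brain beta tubulin, rose 1.21-fold with GW5074 (log2 0.27 ± 0.08 SE, limma adjusted p = 0.0301). Its deposited intensity was 4739 to 4900 in GW_3h and 4565 to 5217 in GW_6h, ranges that overlap, and only after quantile normalisation were the 6 h arrays all above the 3 h arrays. Tubb2b, another brain beta tubulin, was 1641, 2037 and 2688 in LK_3h, 1912, 2080 and 2717 in GW_3h, 1662, 1108 and 2510 in LK_6h and 1272, 1230 and 2310 in GW_6h. Letter C was the highest array for Tubb2b in all 4 groups, and its changes of -0.18 and -0.39 with time did not pass. Tubb5, the most widespread beta tubulin, changed by -0.16 and -0.34 at its brighter probe set and did not pass. Tubb4b (-0.19 and 0.11) and the gamma tubulin Tubg1, which nucleates microtubules (0.05 and 0.27), did not pass in low potassium or with GW5074. Tubb4a changed by 0.33 to 0.87 at its 3 tested probe sets with GW5074, where 1 of them passed, and by -0.31 to 0.14 in low potassium. Of 10 tested beta tubulin probe sets, 2 fell and 0 rose in low potassium, beside 11% and 11.6% of all probe sets. With GW5074 2 rose, those of Tubb2a and 1 of Tubb4a, and 1 fell, beside 13.1% and 11.9% of all.

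Kif13a, a transport kinesin that carries endosomal cargo, rose the most of the kinesins, and both of its tested probe sets agreed. The first probe set (1390480_at) read 80.8, 88.2 and 126 in LK_3h and 341, 195 and 367 in LK_6h. It read 91.2, 80.5 and 108 in GW_3h and 289, 281 and 274 in GW_6h. The 6 h arrays lay above all 3 h arrays, with LK_6h B the lowest of them. The rise was 2.65-fold in low potassium (log2 1.41 ± 0.22 SE, limma adjusted p = 0.001) and 2.62-fold with GW5074 (1.39 ± 0.22, adjusted p = 0.00081). The second Kif13a probe set (1397272_at) rose 1.78-fold (0.83 ± 0.19, adjusted p = 0.00732) and 1.57-fold (0.65 ± 0.19, adjusted p = 0.0217). The second call with GW5074 was lost without GW_3h B (adjusted p = 0.0863), GW_3h C (0.0505), GW_6h A (0.0721) or GW_6h C (0.0878). Kif13a was the only gene with several tested probe sets whose probe sets all passed in either treatment.

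**Figure D1:**
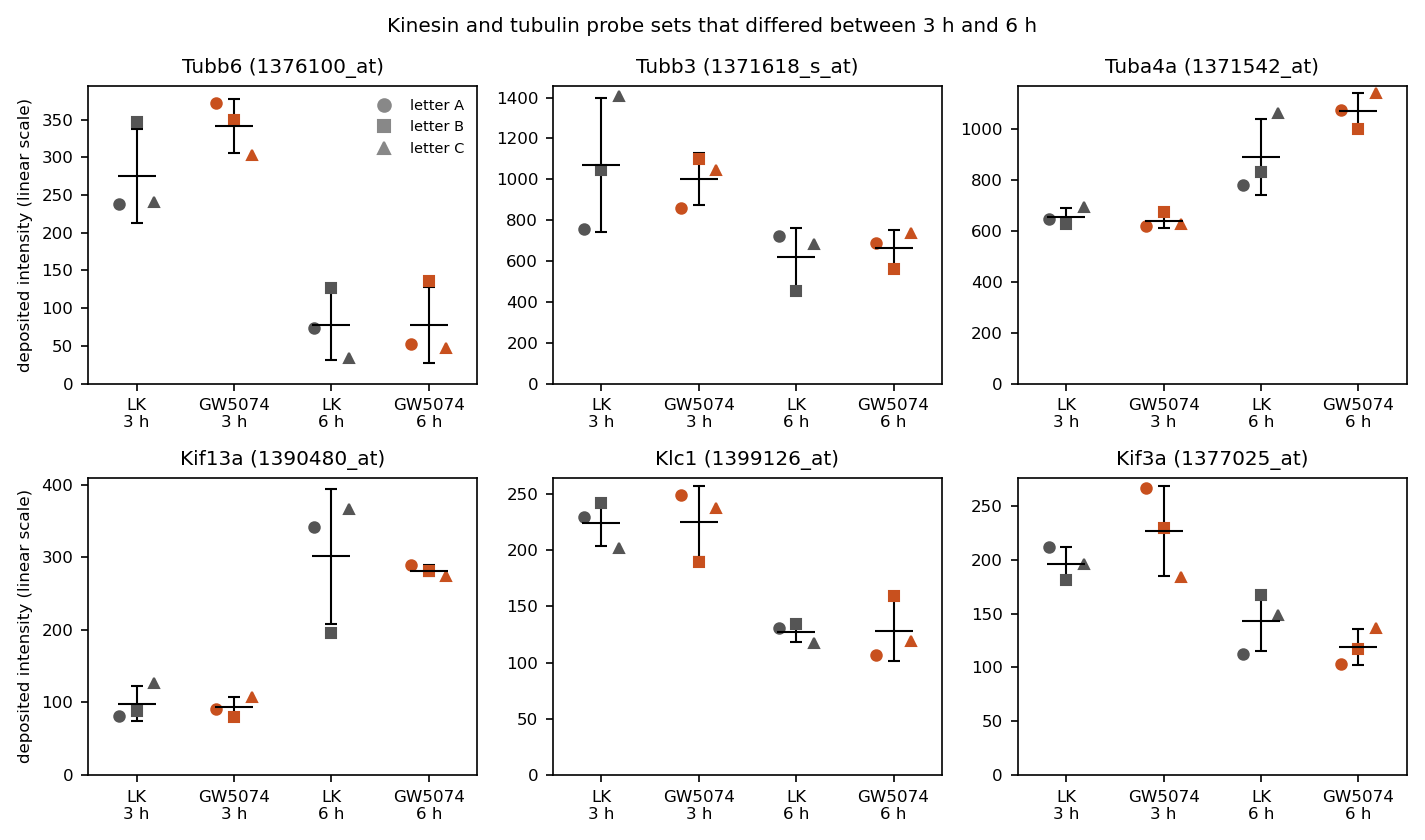
Deposited intensity (linear scale) of 6 probe sets on each of the 12 arrays by group, with symbols for letters A, B and C and bars for the mean ± SD of 3 arrays. Tubb6, Tubb3, Klc1 and Kif3a are lower and Tuba4a and Kif13a higher on every 6 h array than on every 3 h array.

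Among the other transport kinesins, Kif5a and Kif3a each had 1 probe set that passed with GW5074. Kif5a, a neuron-specific heavy chain of the classical motor, read 775, 709 and 736 in GW_3h and 1002, 928 and 962 in GW_6h, and the groups did not overlap. In low potassium it read 766, 805 and 781 at 3 h and 840, 793 and 891 at 6 h, which overlap. The rise with GW5074 was 1.3-fold (log2 0.38 ± 0.10 SE, limma adjusted p = 0.0126), lost without GW_3h B (0.059) or GW_6h A (0.0565), and the change in low potassium was 0.12 ± 0.10 (95% interval -0.09 to 0.32). The other Kif5a probe sets did not pass, with time changes of 0.09 and -0.39 under low potassium, beside 0.17 and -0.27 with GW5074. Kif3a is a subunit of the heterotrimeric motor that serves cilia and vesicle transport. Its probe set 1377025_at read 267, 229 and 184 in GW_3h and 103, 117 and 137 in GW_6h, a 1.86-fold fall (log2 -0.89 ± 0.18, adjusted p = 0.00345). In low potassium the same probe set read 212, 181 and 196 at 3 h and 113, 167 and 149 at 6 h, without overlap, and missed the threshold (-0.50 ± 0.18, adjusted p = 0.0584), which it passed with a 60th percentile filter and without GW_3h C, LK_6h B or both 6 h arrays of letter B. The second Kif3a probe set changed by -0.03 and -0.00, so that the gene's probe sets disagreed.

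No other probe set of the main axonal transport motors passed over time. Kif5b, the ubiquitous heavy chain, changed by 0.35 ± 0.13 in low potassium (limma adjusted p = 0.0724) and 0.13 ± 0.13 with GW5074 (95% interval -0.15 to 0.42) at its brighter probe set, and without LK_3h A the first passed (0.47, adjusted p = 0.0388). The dimmer Kif5b probe set changed by 0.40 and -0.29. Kif5c, another neuronal heavy chain, changed at its brightest probe set by 0.22 ± 0.12 (interval -0.04 to 0.47) and 0.26 ± 0.12 (interval 0.01 to 0.52), and the second passed without GW_6h C (0.38, adjusted p = 0.0367). Kif5c probe set 1396154_at changed by 0.53 ± 0.23 in low potassium, with the 6 h arrays above the 3 h arrays (limma adjusted p = 0.11, past the threshold without GW_3h C), and by 0.09 with GW5074, and the third Kif5c probe set by -0.04 and -0.27. Kif1a, the motor of synaptic vesicle precursors, changed by -0.13 ± 0.22 and 0.37 ± 0.22 at probe set 1382785_at, by 0.10 and 0.09 at 1384133_at and by 0.37 and -0.07 at the dim 1397505_at. The partner of Kif3a, Kif3b, changed at its brighter probe set (1374428_at) by 0.19 and 0.32, and its 6 h arrays (368 to 435) all lay above its 3 h arrays (309 to 325), although neither change passed (the one with GW5074 did without quantile normalisation and with a 60th percentile filter). A dim second Kif3b probe set changed by 0.68 ± 0.42 and -0.11 ± 0.42. Kif3c probe set 1369637_at read 479 to 607 at 3 h and 580 to 771 at 6 h, with changes of 0.33 and 0.28 that did not pass. Both of these Kif3c changes passed without both 6 h arrays of letter B. The second Kif3c probe set (1387657_at) changed by 0.13 and 0.38, and the change with GW5074 passed without quantile normalisation. Of 24 tested transport kinesin probe sets, 2 rose and 0 fell in low potassium, beside 11.6% and 11% of all probe sets. With GW5074 3 rose and 1 fell, beside 13.1% and 11.9% of all. The medians of the 24 were 0.16 and 0.12.

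**Figure D2:**
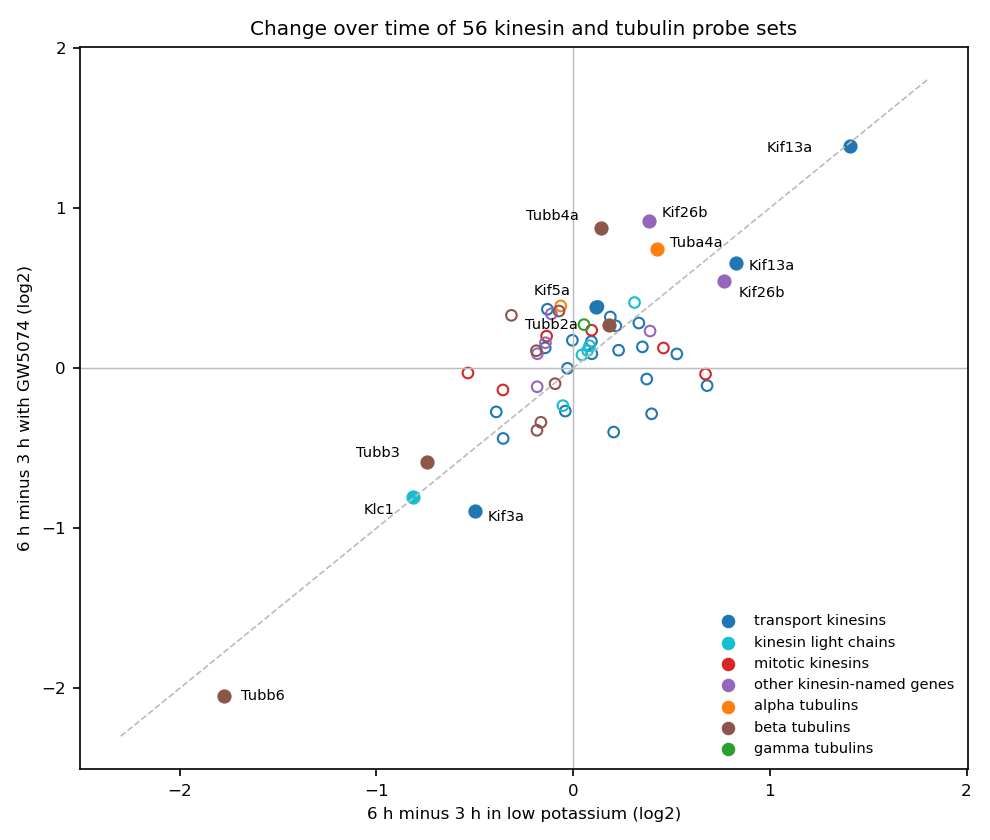
Change from 3 h to 6 h (log2) of the 56 tested probe sets in low potassium (horizontal axis) and with GW5074 (vertical axis), coloured by class; filled points passed an adjusted p of 0.05 in at least 1 treatment and the dashed line marks equal change. Tubb6 lies furthest down on both axes, Kif13a furthest up, and most open points lie within 0.5 of 0.

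Klc1, a light chain abundant in neurons, gave different answers at its 4 tested probe sets. Probe set 1399126_at read 230, 242 and 202 in LK_3h and 130, 134 and 117 in LK_6h, and 249, 190 and 237 in GW_3h and 107, 159 and 119 in GW_6h. Every 6 h array was below every 3 h array. The falls were 1.76-fold and 1.75-fold (log2 -0.81 ± 0.16 SE in both treatments, limma adjusted p = 0.00366 and 0.00335). The brightest Klc1 probe set, 1370886_a_at, read 3735 to 4543 at 3 h and 3841 to 4265 at 6 h and changed by 0.08 ± 0.09 and 0.14 ± 0.09. At 1388125_a_at, letter C stood apart at 3 h with 822 (LK_3h) and 805 (GW_3h), beside 1331 to 1434 for letters A and B, and the changes of -0.05 and -0.24 did not pass. The suffix a of these last probe sets marks probes common to alternative transcripts of a gene, and which Klc1 transcript each probe set reads was not tested. Klc2 (0.04 and 0.08) and Klc4 (0.31 and 0.41) did not pass, and for Klc4 both changes passed without both 6 h arrays of letter B (in low potassium also without LK_6h B alone), which read 150 and 217 beside 256 to 300 for letters A and C.

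Of the kinesin-named genes outside transport and mitosis, Kif26b passed. Kif26b encodes an atypical kinesin without motor activity that takes part in Wnt5a signalling. Probe set 1374246_at read 21.2, 38.6 and 28.5 in LK_3h and 58.4, 74.1 and 48.5 in LK_6h, without overlap. It rose 1.7-fold in low potassium (log2 0.77 ± 0.20 SE, limma adjusted p = 0.0146), lost without LK_3h A (0.0597), and changed by 0.54 ± 0.20 with GW5074 (adjusted p = 0.06). Probe set 1376617_at read 16.5, 33.3 and 12.4 in GW_3h and 56.7, 41.0 and 51.1 in GW_6h, also without overlap, and rose 1.89-fold with GW5074 (0.92 ± 0.23, adjusted p = 0.0105, or 0.051 without GW_6h A). In low potassium it changed by 0.38 ± 0.23. Kif26b was dim on all arrays, and another tested probe set gave -0.11 and 0.34. Kif2a, a kinesin that shortens microtubules and prunes axon branches, held steady at its 3 probe sets, with changes of -0.18 to -0.14 in low potassium and -0.12 to 0.16 with GW5074.

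The mitotic kinesins were dim, and none of them passed in either time comparison (limma, with an unadjusted p under 0.05 for 3 of 6 probe sets in low potassium and 0 of 6 with GW5074). Of their 14 probe sets 6 passed the filter, 1 each for Kif11, Kif15, Kif20b, Kif22, Kif23 and Kifc1, with intensities of 11.4 to 127 on single arrays. The 8 that did not pass the filter read 1.66 to 47.4 and included Kif2c, Kif14, Kif18a, Kif18b and Kif20a. Kif11, the motor that pushes spindle poles apart, read 31.2 to 42.3 in LK_3h, 24.1 to 44.3 in GW_3h, 23.2 to 42.0 in LK_6h and 27.8 to 48.4 in GW_6h, so all groups overlapped. Kif23, which builds the central spindle in cytokinesis, read 61.1, 67.1 and 81.0 in LK_3h and 53.3, 70.4 and 33.9 in LK_6h, and 62.0, 60 and 54.1 in GW_3h and 55.3, 92.8 and 22.6 in GW_6h. Letter B was high and letter C low for Kif23 at 6 h in both treatments. The 6 changes ranged from -0.54 (Kifc1) to 0.67 (Kif15) in low potassium and from -0.14 to 0.24 with GW5074. In low potassium Kif15, which assists Kif11 at the spindle, read 19.7, 15.3 and 26.3 at 3 h and 55.2, 30.6 and 38.0 at 6 h, without overlap, and its adjusted p was 0.0519 (limma). Kif15 passed there without LK_3h C, LK_6h B, GW_6h B or both 6 h arrays of letter B, and Kif15 and Kifc1 passed in the fit without a mean-variance trend. Kif15, Kif22 and Kifc1 are named after their values were seen. Of the 16 tested proliferation markers, 0 passed in either treatment (limma, unadjusted p under 0.05 for 0 in low potassium and 1 with GW5074), with medians of -0.12 and -0.11 (log2).

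Promoter sequence is shown for 2 beta tubulins that were lower (Tubb6 and Tubb3) and for a kinesin and an alpha tubulin that were higher (Kif13a and Tuba4a) on all 6 h arrays, a choice made after their values were seen. Each line gives the 250 bases before the RefSeq start of the gene, 5′ to 3′ on the gene's strand, build GRCr8, a build used for names and promoters only. Capitals mark CCAAT boxes (CCAAT or its complement ATTGG) and GC boxes (GGGCGG or its complement CCGCCC).
Tubb6, chr18:63213037-63213286, plus strand: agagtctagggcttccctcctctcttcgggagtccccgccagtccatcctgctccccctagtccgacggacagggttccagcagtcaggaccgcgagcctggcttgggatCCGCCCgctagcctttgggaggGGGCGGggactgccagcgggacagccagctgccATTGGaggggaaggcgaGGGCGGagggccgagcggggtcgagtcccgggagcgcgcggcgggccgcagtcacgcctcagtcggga
Tubb3, chr19:68365437-68365686, plus strand: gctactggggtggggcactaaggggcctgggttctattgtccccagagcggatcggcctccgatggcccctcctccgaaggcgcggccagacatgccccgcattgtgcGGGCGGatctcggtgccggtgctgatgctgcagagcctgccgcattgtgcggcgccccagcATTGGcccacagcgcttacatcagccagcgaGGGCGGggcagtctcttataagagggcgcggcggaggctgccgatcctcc
Kif13a, chr17:17972603-17972852, plus strand: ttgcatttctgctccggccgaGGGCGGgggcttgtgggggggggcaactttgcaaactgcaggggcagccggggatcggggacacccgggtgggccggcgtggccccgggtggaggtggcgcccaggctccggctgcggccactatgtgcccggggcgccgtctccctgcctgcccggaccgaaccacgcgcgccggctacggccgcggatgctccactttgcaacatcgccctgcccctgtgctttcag
Tuba4a, chr9:84162585-84162834, minus strand: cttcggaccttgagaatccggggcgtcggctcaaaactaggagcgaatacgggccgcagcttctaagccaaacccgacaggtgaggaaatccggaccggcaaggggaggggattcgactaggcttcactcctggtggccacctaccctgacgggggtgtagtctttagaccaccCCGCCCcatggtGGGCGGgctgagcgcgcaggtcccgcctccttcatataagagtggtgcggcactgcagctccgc

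The promoters of Tubb6 and Tubb3 each held 1 CCAAT box on the reverse strand, 85 and 81 bases before the start, and 3 and 2 GC boxes. Those of Kif13a and Tuba4a held no CCAAT box and 1 and 2 GC boxes. Both strands were searched over 33469 RefSeq promoters of the same length, and a match is only a run of letters. These promoters were not selected for gene type or presence on the array, so they are not a matched set for the members. Of 40 members with a promoter entry, 19 held CCAAT and 27 held GGGCGG, beside 34% and 30.5% of all promoters. The median GC content of the members' promoters was 63%, beside 51.2% for all. The AP-1 site (TGANTCA) was in 3 (Kif18b, Kif21a and Klc4), beside 6.34% of all promoters, and the cyclic AMP response element (TGACGTCA) in 4 (Kif15, Kif5c, Klc1 and Tubb2a), beside 1.59%. TATAAA was in 5, CACGTG in 2 and GTAAACA in 1, beside 12.9%, 5.59% and 3.21% of all promoters.

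Genes that work with tubulins and kinesins were counted from lists with 1 probe set per gene, the one with the highest mean. Of all 10259 genes, 25.4% passed in low potassium over time (1168 rose and 1440 fell) and 27.4% with GW5074 (1378 rose and 1437 fell). For the difference between these time changes (interaction, limma), 0 of the 10259 passed. Among 15 structural microtubule-associated proteins 4 rose and 2 fell in low potassium (median 0.21) and 7 rose and 2 fell with GW5074 (median 0.55). Those that rose in both included Camsap2, which caps minus ends (0.90 and 1.03), and Map2, a dendritic stabiliser (0.90 and 0.86). Map1b, an axonal stabiliser, rose by 0.55 with GW5074, whereas Dclk2, a doublecortin-like kinase, fell by 0.70 and 0.50 and Map6, which stabilises cold-resistant microtubules, fell by 0.88 and 0.75. Among 17 tubulin folding factors, which fold and assemble tubulin dimers, 0 rose, 3 fell in low potassium (median -0.27) and 6 fell with GW5074 (median -0.32). The chaperonin subunit Cct4 fell by 0.56 and 0.61, and the prefoldin subunit Pfdn2 fell by 0.61 and 0.74. Prefoldin subunit Pfdn4 fell by 0.63 with GW5074, and the chaperonin subunit Cct3 fell by 0.28 in low potassium.

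Of 12 tubulin modifying enzymes, 5 fell in low potassium (median -0.34) and 1 fell with GW5074 (median -0.17). For the difference between these time changes (interaction, limma), 0 of the 12 had an unadjusted p under 0.05. Sirt2, a tubulin deacetylase, fell by 0.73 and 0.62, and in low potassium Atat1, the alpha tubulin acetyltransferase, fell by 0.57 and Vash1, a tubulin carboxypeptidase, fell by 0.60. Among 17 kinesin partners and cargo adaptors, 1 rose and 2 fell in low potassium and 4 rose and 0 fell with GW5074. Sybu, which links the classical motor to syntaxin cargo, rose by 0.86 and 1.22. The kinesin-3 adaptor Madd fell by 0.75 and Apba1, an adaptor of the Kif17 motor, fell by 0.46 in low potassium, and with GW5074 Clstn1, a light chain cargo, rose by 0.70 and Fez1, a heavy chain adaptor, by 0.30.

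Dynein, the motor that runs towards minus ends, and its partner dynactin had 4 rises and 1 fall in low potassium and 3 rises and 4 falls with GW5074 among 19 genes. The dynein adaptor Bicd2 rose by 1.01 and 1.02, while the dynactin subunit Dctn2 fell by 0.36 and 0.40. The light intermediate chain Dync1li1 rose by 0.50 in low potassium, and the dynein regulator Pafah1b1 fell by 0.55 with GW5074. Of 13 plus-end and severing proteins, 2 rose and 1 fell in low potassium and 3 rose with GW5074. Clasp2, which stabilises growing ends, rose by 0.75 and 0.65 and Spast, a severing enzyme, by 0.59 and 0.64. Nav2 fell by 0.80 in low potassium, and Mapre3, an end-binding protein, rose by 0.57 with GW5074. Of 9 genes of the gamma-tubulin ring complex and its anchors, 0 passed in low potassium (limma, unadjusted p under 0.05 for 1) and 1, Pcnt, rose by 0.71 with GW5074. Of the 14 granule neuron markers, 5 rose in low potassium and 11 in the GW5074 cultures. For the difference between these time changes (interaction, limma), 0 of the 14 passed and 1 had an unadjusted p under 0.05. Of the 8 tested astrocyte markers 2 rose in each treatment, or 25%, beside 25.4% and 27.4% of all genes that passed. They were Gfap (1.87 and 1.92) and Aldoc (1.10 and 1.24), and the median of the 8 was 0.23 and -0.002. The mean intensities of Slc1a3 and Aldh1l1 were lower at 6 h in both treatments. The part of granule neuron or astrocyte content in the changes above was not tested.

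GW5074 was compared with low potassium at each time. At 3 h no member passed without a block or with the letter as a block (limma), beside 0% and 0.0161% of all probe sets. Without the block 1 of 56 reached an unadjusted p under 0.05 (limma), or 1.79%, beside 1.64% of all. With the block 4 did, or 7.14%, beside 6.54% of all. The members with the smallest p at 3 h were Kif26b (1376617_at, -0.66 ± 0.23 log2), Kif5b (1378096_at, 0.35 ± 0.18) and Kif1a (1397505_at, -0.68 ± 0.37). At 6 h no member passed without the block (limma, lowest adjusted p = 0.715), beside 0% of all probe sets, while 7 of 56 had an unadjusted p under 0.05, or 12.5%, beside 4.81% of all. In the fit with the letter as a block, which pairs the GW5074 and low-potassium arrays of a letter, 3 of 56 passed. This was 5.36%, beside 1.87% of all probe sets (0.956% higher and 0.918% lower). An unadjusted p under 0.05 (limma) was reached by 15, or 26.8%, beside 16.3% of all. The 3 that passed were 2 probe sets of Tubb4a, both higher with GW5074, and 1 of Kif5c, lower. With the letter as a random block 1 of them passed, the Tubb4a probe set 1393635_x_at, or 1.79%, beside 0.521% of all probe sets. The 3-prime minus 5-prime difference of the actin control probe sets reads RNA quality. In all 6 pairs it was larger on the GW5074 array, by 0.019 to 0.297 at 3 h and 0.035 to 0.184 at 6 h, and its part in these results was not tested.

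Tubb4a, a beta tubulin of neurons and oligodendrocytes, was higher with GW5074 at 6 h at both probe sets whose suffix x marks probes that also match other sequences. Probe set 1393635_x_at read 403, 424 and 493 in LK_6h and 714, 566 and 701 in GW_6h. Probe set 1398624_x_at read 494, 343 and 467 in LK_6h and 676, 588 and 707 in GW_6h. The GW5074 and low-potassium arrays did not overlap at 6 h at either. The differences were 1.48-fold (log2 0.57 ± 0.15 SE, limma adjusted p = 0.715 without the block and 0.022 with it) and 1.51-fold (0.59 ± 0.21, adjusted p = 0.956 and 0.0118). Within letters A, B and C they were 0.79, 0.41 and 0.50 at the first and 0.41, 0.77 and 0.59 at the second, higher in 3 of 3 pairs. At 3 h the same pairs gave -0.40, -0.15 and 0.32, and -0.12, 0.12 and -0.42, of mixed sign. The difference between the 6 h and 3 h effects was 0.64 and 0.73 and did not pass (adjusted p = 1 without the block, 0.113 and 0.056 with it). The third Tubb4a probe set, 1384927_at, read 320, 248 and 233 in LK_6h and 369, 239 and 326 in GW_6h, with overlap, and differed by 0.17 ± 0.20 (adjusted p = 0.505 with the block). Whether signal from other tubulins reaches the x probe sets was not tested. Both calls held when any 3 h pair was left out of the fit with the block. When a 6 h pair was left out, 1393635_x_at passed without pair B only (adjusted p = 0.031) and 1398624_x_at without pair A only (0.0317), and without the 6 h pair C no member passed. The rise over time of 1398624_x_at with GW5074 was 1.83-fold (0.87 ± 0.21, limma adjusted p = 0.00916), beside 0.14 in low potassium. At 1393635_x_at the time changes were 0.33 with GW5074 and -0.31 in low potassium, and neither passed.

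**Figure D3:**
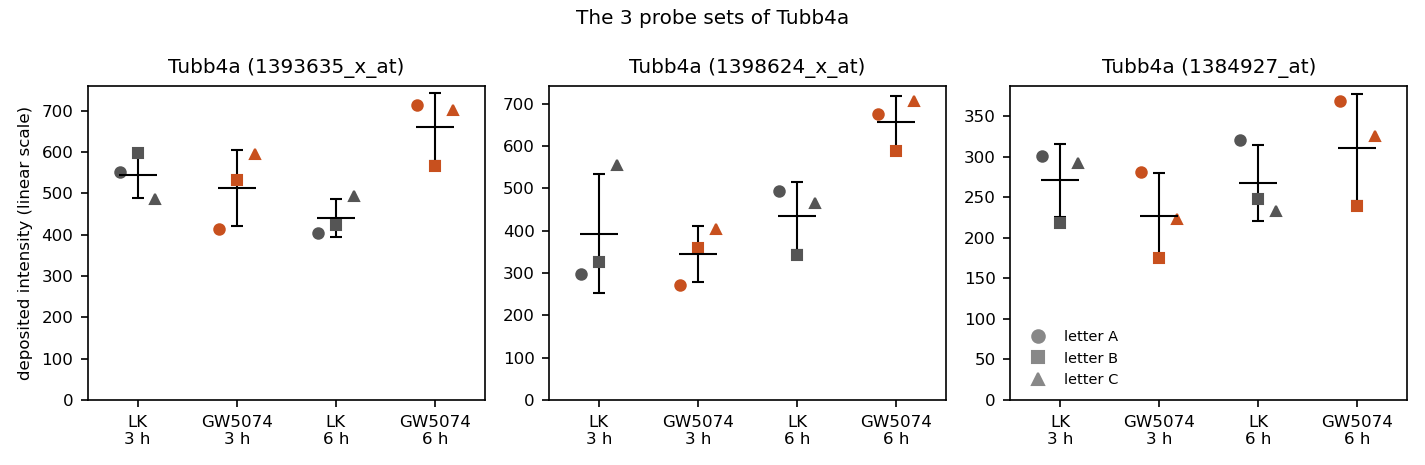
Deposited intensity (linear scale) of the 3 Tubb4a probe sets on each array by group, with symbols for letters and bars for the mean ± SD of 3 arrays. In the first and second panels the 3 GW5074 arrays at 6 h lie above the 3 low-potassium arrays at 6 h, and in the third panel they overlap.

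Kif5c probe set 1396154_at was lower with GW5074 at 6 h in the fit with the block. It read 406, 487 and 430 in LK_6h and 373, 319 and 292 in GW_6h, without overlap. At 3 h it read 350, 335 and 210 in LK_3h and 365, 354 and 195 in GW_3h, with letter C low in both. The difference at 6 h was 1.36-fold (log2 -0.44 ± 0.23 SE, limma adjusted p = 0.981 without the block and 0.0446 with it), and by letter it was -0.17, -0.62 and -0.54. The call held without the 6 h pair A (adjusted p = 0.047) and was lost without any other pair. Without the 3 h pair A or C, Kif1a 1397505_at passed in its place. The other Kif5c probe sets, 1380172_at and 1395997_at, differed by 0.10 and -0.04 at 6 h, so 1 of 3 probe sets of the gene gave the call. Among the other motors of the same kind, Kif5a differed by 0.20 ± 0.10 at its brightest probe set (95% interval -0.01 to 0.40) and Kif5b by -0.20 ± 0.13 (interval -0.49 to 0.09), and neither passed with the block (adjusted p = 0.208 and 0.299).

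**Figure D4:**
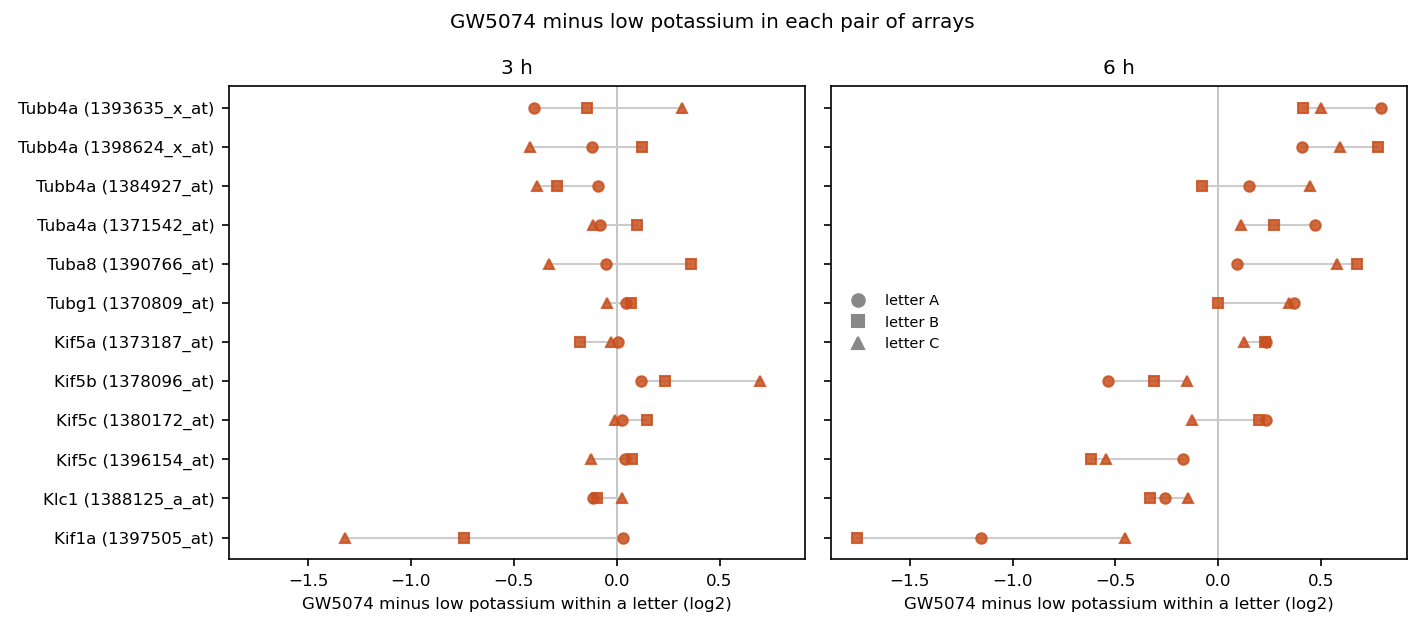
Difference between GW5074 and low potassium (log2) within each letter at 3 h (left) and 6 h (right) for 12 probe sets, a point per pair and a line over the range. At 6 h both upper Tubb4a probe sets lie right of 0 in 3 of 3 pairs and Kif5c 1396154_at and Kif1a 1397505_at lie left of 0 in 3 of 3 pairs.

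Several members that did not pass had all 3 pairs on one side at 6 h. Over the 56 tested probe sets, 12 had all 3 pairs above 0 and 12 all 3 pairs below 0 at 6 h, or 21.4% each, beside 18.9% and 17.8% of all probe sets. At 3 h 7 and 7 did, or 12.5% each, beside 13.3% and 14.5% of all. The groups did not overlap at 6 h for 11 of 56 probe sets, or 19.6%, beside 9.76% of all probe sets. Tuba4a differed by 0.28 ± 0.12 at 6 h, with 0.47, 0.27 and 0.11 in the pairs (limma adjusted p = 0.981 without the block and 0.101 with it). Tubg1 differed by 0.24 ± 0.13 (0.253 with the block), with 0.37, 0.00 and 0.35 in the pairs. Tuba8, which was chosen after its values were seen, read 145, 95.0 and 89.1 in LK_6h and 156, 161 and 145 in GW_6h. The groups did not overlap, although LK_6h A and GW_6h C were close (144.7 and 144.8), and Tuba8 differed by 0.45 ± 0.18 (0.158 with the block). The kinesins Kifc1 and Kifc2, also named after their values were seen, were higher in 3 of 3 pairs without overlap. They differed by 0.586 ± 0.218 and 0.335 ± 0.149 (limma adjusted p = 0.204 and 0.0968 with the block). Kif1a probe set 1397505_at read 70.6, 46.6 and 42.7 in LK_6h and 19.9, 2.02 and 27.4 in GW_6h, a dim signal without overlap, and differed by -1.12 ± 0.37 (0.0543 with the block). The brighter Kif1a probe sets differed by 0.17 and 0.05 and overlapped. Tubb6, Tubb3 and Kif13a, which changed with time, differed between treatments at 6 h by 0.03 ± 0.34, 0.11 ± 0.21 and -0.08 ± 0.22 (Kif13a 1390480_at). The second Kif13a probe set, 1397272_at, was lower with GW5074 in 3 of 3 pairs (-0.50, -0.13 and -0.22) and differed by -0.29 ± 0.19 (limma adjusted p = 0.35 with the block).

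Averaged over 3 h and 6 h, no member passed for GW5074 against low potassium (limma, lowest adjusted p = 1 without the block and 0.0886 with it), beside 0% and 0.236% of all probe sets. Without the block 4 of 56 had an unadjusted p under 0.05 (limma), or 7.14%, beside 2.54% of all. The smallest p belonged to Kif1a 1397505_at (-0.90 ± 0.26), Kif26b 1376617_at (-0.40 ± 0.16) and Tubb4a 1393635_x_at (0.25 ± 0.11). No member passed for the difference between the effects at 6 h and 3 h with the block either, where 0.199% of all probe sets did. Among the partner genes, the fit with the block called 3 at 6 h. They were 1 of 17 kinesin partners, 1 of 15 structural microtubule-associated proteins and 1 of 19 dynein and dynactin genes. The fit called 0 of 17 folding factors, 13 plus-end and severing proteins, 12 modifying enzymes and 9 ring complex genes. Over all 10259 genes it called 114 higher and 86 lower. Clstn1 rose by 0.33 (limma adjusted p = 0.0213) and Map1a, an axonal and dendritic stabiliser, by 0.47 (0.0231), and Dync1li2, a dynein light intermediate chain, fell by 0.39 (0.00944). None of these passed without the block. Of the 14 granule neuron markers, 2 passed as higher in the fit with the block, Slc17a7 (0.42) and Syp (0.35), and the median of the 14 was 0.175. At 6 h the mean intensity with GW5074 was lower for Neurod1, Pax6 and Zic1 and higher for the others. The part of granule neuron content in the tubulin and kinesin results was not tested.

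The probe sets of a gene often disagreed. Of the 35 tested genes 13 had several tested probe sets and 22 had 1. In low potassium 3 of the 13 had at least 1 probe set that passed over time, and with GW5074 6 had, and in each treatment Kif13a alone had all of its probe sets pass. The largest gap was at Klc1, whose 4 probe sets ranged from -0.81 to 0.08 in low potassium and from -0.81 to 0.14 with GW5074. For Kif3a the range with GW5074 was -0.89 to -0.00, and for Kif5a it was -0.27 to 0.38. For the genes with 1 tested probe set, Tubb6, Tubb3, Tubb2a and Tuba4a among them, no such comparison was possible.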

How the data were processed

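Per the labels, total RNA from rat neuron cultures was put on 12 arrays. The deposited intensity is 1 linear value per probe set and array. From the values, the authors had scaled each array to a trimmed mean of about 150.1, with 2% removed at each end, and the sources used here do not give the summarisation. The number of arrays limits the precision. From these, 57 control probe sets were removed, values were quantile-normalised, 16 was added and log2 taken, and probe sets with a mean at or above the 40th percentile were kept (18625). Log2 and fold changes are on that scale, with standard errors, and intensities are as deposited. The test was limma 3.58.1 in R 4.3.3 (4 group means, eBayes with trend, two-sided, Benjamini-Hochberg at 0.05, 8 residual degrees of freedom). Overlap of groups was judged on normalised values. Figures used matplotlib 3.10.9 in Python 3.11.15.

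The alternative with the letter within time as a block has 4 residual degrees of freedom. Letters in the titles give the pairing. After removal of group means the 2 arrays of a letter correlated by 0.422, 0.21 and 0.542 at 3 h and 0.291, 0.651 and 0.573 at 6 h. Each low-potassium array correlated best with the GW5074 array of its own letter among those of its time. Other alternatives were no quantile normalisation, pseudocounts of 1 and 64, other filters, no trend, each array left out, both 6 h arrays of letter B left out and, chosen after seeing the data, the letter as a random block. On simulated data for GW5074 at 6 h (18625 probe sets, 200 changed), a log2 change of 1 was recovered for 66% without and 73% with the block, and a change of 0.5 for 2% and 0.5%. The simulation gave every probe set the same fixed correlation within pairs. Each fit had its own simulated data, so the shares with and without the block are not a comparison on the same data.

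All 78 member probe sets matched a rat gene table (assembly GRCr8, names only) by Entrez identifier, and none changed symbol. GW_6h A has a title suffix of its own and was kept. The members and lists were chosen with earlier results of these data known. Genes named with values were those past the threshold, the 3 members with the smallest p where none passed, preset genes, and up to 3 genes with the smallest p of each partner list. Preset Kif4a and Tuba1a have no member probe set, and Kif1b and Kif2c lay below the filter. Protein sequences were not used here.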

Additional observations from a re-analysis of the deposited data

Results flagged for a closer look

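For 5 of the 56 tested probe sets, or 8.93%, all 3 pairs lay on opposite sides of 0 at 3 h and 6 h, beside 6.06% of all tested probe sets. They were probe sets of Kif5b, Kif15, Kif1c, Tubb4b and Kif2a. For none did the difference between the effects pass the limma interaction test (unadjusted p under 0.05 for Kif5b, Kif15 and Kif1c). The 5 were picked by that same difference in these data, so the unadjusted p-values are not separate evidence. For Kif5b it was probe set 1378096_at. The GW5074 arrays were higher in 3 of 3 pairs at 3 h (0.12, 0.24 and 0.69 log2, 0.35 on average) and lower in 3 of 3 pairs at 6 h (-0.54, -0.31 and -0.15, -0.34 on average). Its intensity was 136, 115 and 86.6 in LK_3h and 146, 137 and 154 in GW_3h, and 203, 135 and 145 in LK_6h and 136, 105 and 129 in GW_6h. The difference between the effects was -0.684 ± 0.26 SE and did not pass the limma interaction test (adjusted p = 1 without the block and 0.144 with it). The brighter Kif5b probe set gave 0.02 at 3 h and -0.20 at 6 h.

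For Kif15 the pairs were 0.37, 0.31 and 0.33 at 3 h and -0.40, -0.35 and -0.37 at 6 h, a difference of -0.711 ± 0.33 between the effects (limma adjusted p = 1 without the block and 0.299 with it). For Kif1c, a transport kinesin with intensities of 15.1 to 36.7, they were 0.15, 0.11 and 0.42 at 3 h and -0.48, -0.36 and -0.30 at 6 h, a difference of -0.606 ± 0.28 (adjusted p = 1 and 0.4). Tubb4b went from -0.13 at 3 h to 0.17 at 6 h on average, a difference of 0.295 (adjusted p = 1 and 0.237), and Kif2a probe set 1392532_at from -0.09 to 0.21, a difference of 0.299 (adjusted p = 1 and 0.426).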

How the results depend on the processing

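At 6 h the count of members called for GW5074 was 0 without the replicate block, 3 with it and 1 with a random block, and with arrays or pairs left out it ranged from 0 to 3. The replicate block changed no call of the other GW5074 comparisons. The time counts ranged from 5 to 9 in low potassium and 7 to 11 with GW5074 with an array left out, and were 10 and 12 without both 6 h arrays of letter B. The 67 named values were recomputed 1515 times in all over the alternatives, and 50 of these recomputed values turned sign, belonging to 16 named values that had not passed. The cause was not tested.

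Without both 6 h arrays of letter B, GW5074 at 6 h gave -0.14 for Kif23, 0.0584 for Klc1 and -0.00629 for Tubb6, and 6 h minus 3 h in low potassium gave 0.11 for Kif3a, 0.123 for Tubb2b and 0.0297 for Tubb5. Kif3a with GW5074 gave 0.0431 over time there, 0.00285 with a pseudocount of 64 and 0.0685 without quantile normalisation, which gave 0.0392 for Kif3a in low potassium and -0.0549 and -0.0405 for Klc1. With a pseudocount of 1, Kif23 gave -0.0208 for GW5074 at 6 h.

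With an array or pair left out, GW5074 at 6 h ranged from -0.14 to 0.36 for Kif1a, -0.31 to 0.40 for Kif23, -0.23 to 0.19 for Kif3a, -0.0989 to 0.0584 for Klc1, -0.43 to 0.18 for Tubb2b, -0.10 to 0.24 for Tubb3, -0.285 to 0.0519 for Tubb5 and -0.36 to 0.38 for Tubb6. The low-potassium time change ranged from -0.269 to 0.0341 for Kif11, -0.16 to 0.11 for Kif3a, -0.00199 to 0.13 for Klc1, -0.48 to 0.12 for Tubb2b and -0.351 to 0.0297 for Tubb5. With GW5074 it ranged from -0.47 to 0.25 for Kif23 and -0.21 to 0.16 for Kif3a. Tubb2a lost its call with GW5074 over time without GW_3h A, GW_3h B, GW_6h B or GW_6h C, without quantile normalisation, without the filter and without the trend.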
